A study of Mus musculus with 12 samples.

Results

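In all, 10 genes of the extrinsic, or death receptor, route to apoptosis were followed across 4T1 cells labelled as integrin β3 wild type or knockout, each with and without docetaxel. They were the ligand gene Tnfsf10, the receptor genes Fas, Tnfrsf10b and Tnfrsf1a, the kinase gene Ripk1, the protease gene Casp8, its regulator gene Cflar, and the inhibitor of apoptosis genes Birc2, Birc3 and Xiap. A gene was taken when its symbol in the count table equalled one of these names, and all 10 were found among the 40406 gene entries left after repeated entries were removed. 4T1 is a triple-negative mammary cancer line from BALB/c mice. Cells carrying wild-type integrin β3 (WT) and cells labelled as integrin β3 knockout (KO) were grown on poly-L-lysine, and received docetaxel at 10 nM, which binds and stabilises microtubules, or DMSO as the vehicle. Exposure lasted 24 h and was followed by 48 h without drug before harvest. The 4 groups, WT-DMSO, WT-DTX, KO-DMSO and KO-DTX, held 3 cultures each, sequenced as 12 ribosomal RNA-depleted libraries. The labels do not say how the knockout cells were made, or whether they are 1 clone, so genotype cannot be told apart from any other difference between the 2 cell stocks.

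Death receptors sit in the plasma membrane and carry an intracellular death domain. When a ligand such as TRAIL or Fas ligand clusters them, the adaptor FADD recruits procaspase 8, which becomes active by dimerisation and cleaves the executioner caspases and Bid. The protein cFLIP, encoded by Cflar, competes with or modifies caspase 8 at this platform, and the IAP proteins act either as ubiquitin ligases on RIPK1 or, in the case of XIAP, as direct inhibitors of caspases. TNF receptor 1 normally signals to NF-κB through RIPK1 and the cIAP proteins and triggers death mainly when that arm is blocked.

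Library totals ran from 28729118 to 40801679 counts. Levels are given below as CPM, the usual depth-scaled count unit, with library totals scaled by TMM factors, and differences as log2 differences with their standard error (SE) from edgeR's quasi-likelihood test, with Benjamini-Hochberg adjustment over 15538 tested genes and a call at 0.05. Itgb3, the gene that the knockout label names, lay between 60.1 and 71.4 CPM in WT-DMSO and between 62.4 and 66.7 CPM in KO-DMSO, so the groups overlapped (log2 difference -0.03, edgeR adjusted p = 0.874). After docetaxel it lay between 80.0 and 88.7 CPM in WT and between 59.3 and 64.6 CPM in KO (log2 difference -0.41, edgeR adjusted p = 0.00765). The level of Itgb3 RNA under DMSO therefore did not separate the genotype labels, and the cells are called knockout-labelled throughout. For the library titled WT-DMSO replicate 1, the free-text description says knockout but the title and the genotype field say wild type, and it was used as wild type. The RNA Gm23935 took from 0.137% to 3.98% of the counts, with WT-DMSO replicate 2 at 3.98%, replicate 1 of that group at 1.62% and KO-DTX replicate 3 at 1.51%. Results that change without WT-DMSO replicate 2 and KO-DTX replicate 3, each the richest of its group and called the 2 Gm23935-rich libraries, are named below. WT-DMSO replicate 1 was left out on its own. Epithelial marker genes summed to between 2459 and 3323 CPM, with Epcam at or above 308.8 CPM and the basal keratin gene Krt5 at or below 0.115 CPM. Macrophage markers summed to between 30.6 and 51.4 CPM under DMSO and to between 52.8 and 63.8 CPM after docetaxel. Cd14, Cd68 and Csf1r carried that sum, while Adgre1, Itgam and Lyz2 stayed at or below 0.160 CPM in every library. Fibroblast markers, carried by Pdgfra with Lum at 0 in every library, summed to between 28.6 and 30.7 CPM in WT-DMSO and between 19.5 and 21.2 CPM in WT-DTX. They summed to between 14.8 and 18.6 CPM in KO-DMSO and between 12.0 and 14.6 CPM in KO-DTX, so the groups did not overlap. The part of both marker lists in the results below was not tested.

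Docetaxel raised the RNA of the ligand TRAIL and of the receptor Fas in both cell stocks. Of the 10 genes, 4 rose in wild-type cells (Fas, Tnfsf10, Cflar and Birc3) and 1 fell (Tnfrsf1a). Among all tested genes, 14.5% rose and 13.8% fell in that comparison. In knockout-labelled cells 5 of the 10 rose (Fas, Tnfsf10, Casp8, Cflar and Birc3), where the background was 9.09%, and 0 fell, where it was 7%. No member was lower there by DESeq2 or limma-voom either, nor at an unadjusted p under 0.05. The median log2 difference of the 10 genes was 0.20 for docetaxel in wild-type cells and 0.26 in knockout-labelled ones, beside 0.02 and 0.00 over all tested genes. The docetaxel and DMSO libraries did not overlap for 7 members in wild-type cells, beside 40.5% of all tested genes, and for 6 members in knockout-labelled cells, beside 37.7%. Since the libraries are bulk RNA, fewer cells of a kind and less RNA per cell cannot be told apart. These counts rest partly on calls near the threshold: the wild-type count ran from 2 to 5 when single libraries were left out, was lowest without WT-DMSO replicate 3 or WT-DTX replicate 3, and was 3 without either WT-DTX replicate 1 or WT-DTX replicate 2.

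**Figure D1:**
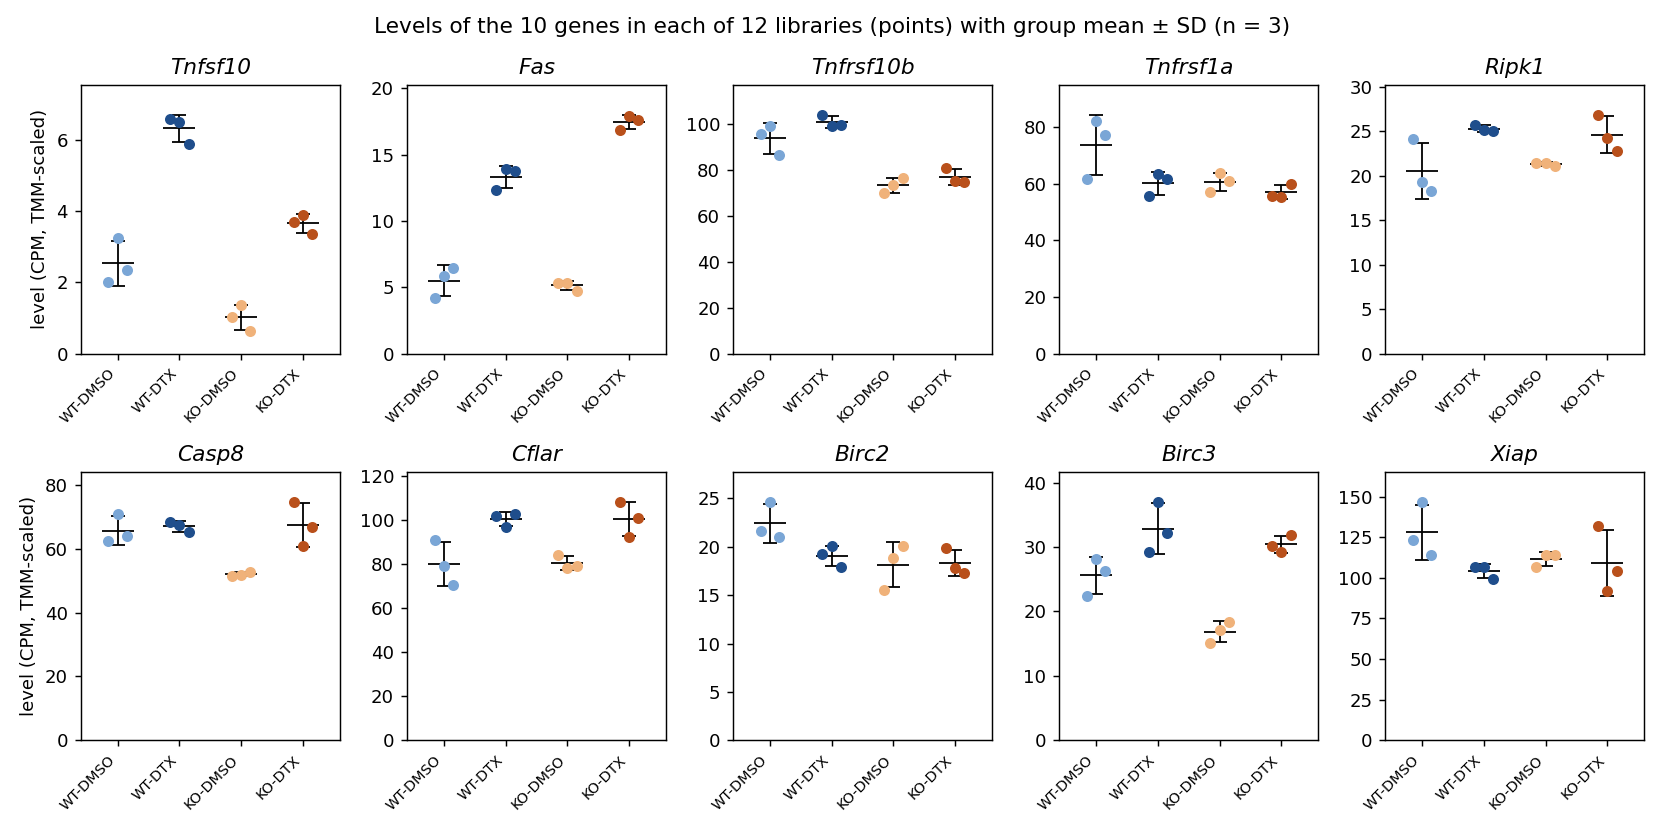
Levels of the 10 genes in CPM (TMM-scaled, vertical axes from 0) in the 4 groups. Each point is 1 of the 12 libraries, and the bar and whiskers are the group mean ± SD (n = 3). The docetaxel libraries of Fas and Tnfsf10 lie above the DMSO libraries of the same cells without overlap, and Tnfrsf10b separates by genotype label.

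The ligand gene Tnfsf10 (GRCm38 chromosome 3, 27317028 to 27342427, forward strand, GENCODE M21) encodes TRAIL. It measured 2.02, 3.23 and 2.33 CPM in WT-DMSO replicates 1 to 3 and 6.58, 6.49 and 5.89 CPM in WT-DTX. In KO-DMSO it measured 1.02, 1.37 and 0.646 CPM, and in KO-DTX 3.70, 3.89 and 3.37 CPM. No 2 groups overlapped, KO-DMSO was lowest in every library and WT-DTX highest. It rose by 1.32 ± 0.22 (SE) on the log2 scale in wild-type cells (edgeR adjusted p = 0.000801) and by 1.86 ± 0.25, or 3.62-fold, in knockout-labelled cells (edgeR adjusted p = 0.000172). Knockout-labelled cells had less of it under DMSO (log2 -1.33 ± 0.25, edgeR adjusted p = 0.00297) and after docetaxel (log2 -0.79 ± 0.21, edgeR adjusted p = 0.0426). The call after docetaxel was lost when any one of the 6 docetaxel libraries was left out (edgeR adjusted p from 0.0801 to 0.169) and without the 2 Gm23935-rich libraries (0.119). The docetaxel calls and the call under DMSO held under all alternatives run.

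Fas (chromosome 19, 34290666 to 34327772, forward strand) encodes the receptor for Fas ligand and carries a death domain. Its level was 4.17, 5.88 and 6.42 CPM in WT-DMSO and 12.3, 13.9 and 13.7 CPM in WT-DTX. It was 5.34, 5.34 and 4.73 CPM in KO-DMSO and 16.9, 17.9 and 17.6 CPM in KO-DTX. The DMSO groups of the 2 genotypes overlapped, whereas every KO-DTX library lay above every WT-DTX library. Fas rose 2.42-fold in wild-type cells (log2 1.28 ± 0.14, edgeR adjusted p = 4.46e-05) and 3.40-fold in knockout-labelled cells (log2 1.77 ± 0.14, edgeR adjusted p = 1.87e-06), under all alternatives run. The genotype difference after docetaxel was 0.39 ± 0.13 on the log2 scale and did not pass (edgeR adjusted p = 0.115), although it did with DESeq2 (adjusted p = 0.048) and when the 6 docetaxel libraries were fitted alone (edgeR adjusted p = 0.0464). The difference between the 2 docetaxel responses was 0.49 ± 0.20 and did not pass (edgeR adjusted p = 0.397). Without WT-DMSO replicate 1, the library whose description conflicts with its title, that difference was 0.65 and passed (edgeR adjusted p = 0.0451).

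The promoters of Fas, Tnfsf10 and Birc3, the 3 members with the largest differences, are shown because all 3 rose with docetaxel in both cell stocks. The stretches are the 250 bases before the RefSeq start (GRCm38.p6), read 5′ to 3′ along the gene's own strand. They lie at chr19:34290409-34290658 (forward), chr3:27316827-27317076 (forward) and chr9:7873171-7873420 (reverse). Capitals mark every match, on either strand, to the motifs searched.
Fas: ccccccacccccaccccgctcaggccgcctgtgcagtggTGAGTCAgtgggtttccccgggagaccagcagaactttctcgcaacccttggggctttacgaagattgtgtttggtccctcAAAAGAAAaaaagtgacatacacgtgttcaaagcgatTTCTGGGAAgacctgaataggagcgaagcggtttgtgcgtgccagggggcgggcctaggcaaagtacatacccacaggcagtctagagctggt
Tnfsf10: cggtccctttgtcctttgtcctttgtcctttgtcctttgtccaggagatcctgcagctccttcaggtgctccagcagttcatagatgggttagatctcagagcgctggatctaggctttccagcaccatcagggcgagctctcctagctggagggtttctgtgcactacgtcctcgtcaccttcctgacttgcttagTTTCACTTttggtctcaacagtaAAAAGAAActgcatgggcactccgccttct
Birc3: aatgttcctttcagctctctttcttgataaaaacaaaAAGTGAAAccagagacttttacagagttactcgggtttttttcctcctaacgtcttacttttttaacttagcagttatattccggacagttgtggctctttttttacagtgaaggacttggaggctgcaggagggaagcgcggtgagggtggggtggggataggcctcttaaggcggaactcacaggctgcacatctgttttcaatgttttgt
The motifs were the interferon-regulatory-factor core AANNGAAA, the STAT-type palindrome TTCNNNGAA, the AP-1-type TGANTCA and the κB consensus. No match to one overlapped a match to another in the 3 stretches. AANNGAAA was found at -130 to -123 from the start of Fas, at -53 to -46 and -30 to -23 of Tnfsf10, and at -213 to -206 of Birc3. It occurs in 21.3% of the 32851 promoter windows of the same length that were searched, from which the windows of 1 chromosome were left out. These positions count from the RefSeq start. GENCODE M21 starts Tnfsf10 at 27317028, inside the window. By that annotation the match at -30 to -23 lies within the gene, and that at -53 to -46 crosses its start. The Birc3 window also reaches past that gene's GENCODE M21 start, but its match lies before it. The Fas window also held TTCNNNGAA at -93 to -85, found in 7.02% of all windows, and TGANTCA at -211 to -205, found in 6.75%. None of the 13 windows of the 9 members in the table held the κB consensus (7.25% of all windows), and the Cflar window, of another gene that rose, held none of the 4. AANNGAAA also occurred in windows of Casp8 and Birc2, and TTCNNNGAA in windows of Tnfrsf1a and Ripk1. These are matches of letters in 1 window and were not tested for binding.

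The 2 other receptor genes did not follow Fas. Tnfrsf10b (chromosome 14, 69767472 to 69784411, forward strand) encodes the mouse TRAIL receptor with a death domain. It measured 96.0, 99.4 and 86.5 CPM in WT-DMSO and 104, 99.2 and 99.8 CPM in WT-DTX. In KO-DMSO it was at 70.0, 73.4 and 76.8 CPM, and in KO-DTX at 81.1, 75.2 and 74.7 CPM. Both docetaxel comparisons overlapped, and every knockout-labelled library lay below every wild-type library. Docetaxel differences were 0.10 ± 0.08 and 0.07 ± 0.08 on the log2 scale (edgeR adjusted p = 0.337 and 0.587). The genotype difference was -0.36 ± 0.08 under DMSO (edgeR adjusted p = 0.00673) and -0.39 ± 0.08 after docetaxel (edgeR adjusted p = 0.00703), and both held under all alternatives run.

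Tnfrsf1a (chromosome 6, 125349362 to 125362484, forward strand) encodes TNF receptor 1. It measured 61.7, 82.2 and 77.2 CPM in WT-DMSO, 55.7, 63.3 and 61.6 CPM in WT-DTX, 57.1, 63.7 and 61.0 CPM in KO-DMSO, and 55.9, 55.5 and 59.8 CPM in KO-DTX. WT-DMSO replicate 1 lay within the ranges of WT-DTX and KO-DMSO and above KO-DTX, while replicates 2 and 3 lay above all 3 groups. It fell by 0.29 ± 0.10 on the log2 scale in wild-type cells (edgeR adjusted p = 0.0457), and this call was lost under 9 alternatives. Among them were leaving out WT-DMSO replicate 2 or 3 or any WT-DTX library (edgeR adjusted p from 0.0609 to 0.168), and leaving out the 2 Gm23935-rich libraries (0.195). In knockout-labelled cells the difference was -0.09 ± 0.10 (edgeR adjusted p = 0.610). The genotype difference under DMSO was -0.28 ± 0.10 (edgeR adjusted p = 0.0765) and passed without WT-DMSO replicate 1 (log2 -0.39, edgeR adjusted p = 0.00596). It also passed with replicate number as a block (edgeR adjusted p = 0.0454), though the numbers were not shown to pair the libraries. After docetaxel the genotype difference was -0.08 ± 0.10 (edgeR adjusted p = 0.771).

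Ripk1 (chromosome 13, 34002363 to 34037147, forward strand) encodes the kinase that links TNF receptor 1 to NF-κB or to cell death. It lay between 18.2 and 24.2 CPM in WT-DMSO, 25.0 and 25.7 CPM in WT-DTX, 21.1 and 21.5 CPM in KO-DMSO, and 22.8 and 26.9 CPM in KO-DTX. The docetaxel libraries lay above the DMSO libraries of the same cells without overlap, by a margin that did not pass. The log2 difference was 0.30 ± 0.11 in wild-type cells (edgeR adjusted p = 0.0511) and 0.21 ± 0.11 in knockout-labelled cells (edgeR adjusted p = 0.208). The first passed under 5 alternatives, among them DESeq2 (adjusted p = 0.0438), limma-voom (adjusted p = 0.0439) and the fit without WT-DMSO replicate 1 (log2 0.43, edgeR adjusted p = 0.00427). Ripk1 shares 241 of its 8344 exonic bases with Serpinb6a on the opposite strand, and the sources used here do not give the strand setting of the counting, so reads there could have been assigned to either gene. Serpinb6a summed to 82645 counts over the libraries, beside 9268 for Ripk1. The part of these reads in the Ripk1 differences was not tested.

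Casp8 (chromosome 1, 58795374 to 58847503, forward strand) encodes the initiator caspase of the pathway. It measured 62.3, 70.7 and 63.9 CPM in WT-DMSO and 68.4, 67.5 and 65.1 CPM in WT-DTX. It measured 51.5, 51.8 and 52.7 CPM in KO-DMSO and 74.8, 60.8 and 66.7 CPM in KO-DTX. KO-DMSO was the group apart, below every library of the other 3 groups. Under DMSO, Casp8 was lower in knockout-labelled cells (log2 -0.34 ± 0.09, edgeR adjusted p = 0.0171), and docetaxel raised it there 1.30-fold (log2 0.38 ± 0.09, edgeR adjusted p = 0.00931). These 2 comparisons share the KO-DMSO libraries. In wild-type cells the docetaxel difference was 0.03 ± 0.09 (edgeR adjusted p = 0.830), and after docetaxel the genotypes differed by 0.01 ± 0.09 (edgeR adjusted p = 0.975). The difference between the docetaxel responses was 0.35 ± 0.12 and did not pass (edgeR adjusted p = 0.352), so the response is not shown to differ between the cells. The DMSO call was lost without WT-DMSO replicate 2 or any KO-DMSO library (edgeR adjusted p from 0.0518 to 0.0707) and without the 2 Gm23935-rich libraries (0.106), while the docetaxel call in knockout-labelled cells held under all alternatives run.

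Cflar (chromosome 1, 58711508 to 58758884, forward strand) encodes cFLIP. It measured 90.8, 79.0 and 70.7 CPM in WT-DMSO, 102, 96.9 and 103 CPM in WT-DTX, 84.4, 78.4 and 79.4 CPM in KO-DMSO, and 108, 92.4 and 101 CPM in KO-DTX. The docetaxel libraries lay above all DMSO libraries, and the genotypes overlapped within each treatment. Cflar rose 1.25-fold in wild-type cells (log2 0.33 ± 0.09, edgeR adjusted p = 0.0189) and 1.25-fold in knockout-labelled cells (log2 0.32 ± 0.09, edgeR adjusted p = 0.0332). Both calls stood close to the threshold. In wild-type cells the call was lost without WT-DMSO replicate 3, WT-DTX replicate 1 or WT-DTX replicate 3 (edgeR adjusted p from 0.0584 to 0.0863) and with the wild-type libraries fitted alone (0.0539). In knockout-labelled cells it was lost without any one knockout-labelled library other than KO-DTX replicate 2 (edgeR adjusted p from 0.0612 to 0.125) and under upper-quartile scaling (0.0611). Without the 2 Gm23935-rich libraries the edgeR adjusted p was 0.0734 for wild-type cells and 0.0905 for knockout-labelled ones. The ratio of Cflar to Casp8 counts within a library compares the regulator with its protease. It was 1.23 ± 0.20 (SD, n = 3) in WT-DMSO, 1.50 ± 0.0724 in WT-DTX, 1.55 ± 0.0738 in KO-DMSO and 1.49 ± 0.0411 in KO-DTX. WT-DMSO replicate 1, at 1.46, lay among the other groups, while replicates 2 and 3 lay below them at 1.12 and 1.11.

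The 3 IAP genes did not move as a group. Birc3 (chromosome 9, 7848699 to 7873186, reverse strand) encodes cIAP2, a ubiquitin ligase of the TNF receptor complex. It measured 22.5, 28.1 and 26.3 CPM in WT-DMSO, 29.2, 37.1 and 32.2 CPM in WT-DTX, 15.1, 17.1 and 18.4 CPM in KO-DMSO, and 30.2, 29.2 and 31.9 CPM in KO-DTX. KO-DMSO was again lowest, with no overlap, and the docetaxel groups overlapped each other. Birc3 rose 1.80-fold in knockout-labelled cells (log2 0.85 ± 0.12, edgeR adjusted p = 0.000222) and 1.28-fold in wild-type cells (log2 0.36 ± 0.11, edgeR adjusted p = 0.0301). It was lower in knockout-labelled cells under DMSO (log2 -0.60 ± 0.12, edgeR adjusted p = 0.00317), and after docetaxel the difference was -0.11 ± 0.11 (edgeR adjusted p = 0.691). The response differed between the cells by 0.49 ± 0.16, which did not pass (edgeR adjusted p = 0.332). The wild-type call was lost without WT-DMSO replicate 1 or 3 or WT-DTX replicate 2 or 3 (edgeR adjusted p from 0.0566 to 0.138) and with the wild-type libraries fitted alone (0.0648). The other 2 calls held under all alternatives run.

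Birc2 (chromosome 9, 7818227 to 7837064, reverse strand), the neighbouring gene for the close relative cIAP1, passed in no comparison. It lay between 21.0 and 24.7 CPM in WT-DMSO, 17.9 and 20.0 CPM in WT-DTX, 15.5 and 20.0 CPM in KO-DMSO, and 17.3 and 19.9 CPM in KO-DTX. WT-DMSO lay above the other 3 groups, with log2 differences of -0.23 ± 0.11 for docetaxel in wild-type cells (edgeR adjusted p = 0.136) and -0.30 ± 0.11 for the genotypes under DMSO (edgeR adjusted p = 0.0823). The ratio of Birc3 to Birc2 counts within a library was 1.14 ± 0.106 (SD, n = 3) in WT-DMSO and 1.72 ± 0.176 in WT-DTX. It was 0.934 ± 0.0345 in KO-DMSO and 1.67 ± 0.164 in KO-DTX, so the docetaxel libraries of both cell stocks lay above all DMSO libraries. Birc2 and Birc3 are paralogs, and the sources used here do not say how reads that match both were counted, so their separate values are uncertain to that extent. Xiap (chromosome X, 42059679 to 42109656, forward strand) encodes the caspase inhibitor XIAP and also passed in no comparison. It lay between 114 and 147 CPM in WT-DMSO, 99.4 and 107 CPM in WT-DTX, 107 and 114 CPM in KO-DMSO, and 92.0 and 132 CPM in KO-DTX. Its wild-type docetaxel difference was -0.30 ± 0.12 (edgeR adjusted p = 0.0819) and passed only with no filter on low counts (0.0395), while the KO-DTX libraries spanned those of the KO-DMSO group.

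**Figure D2:**
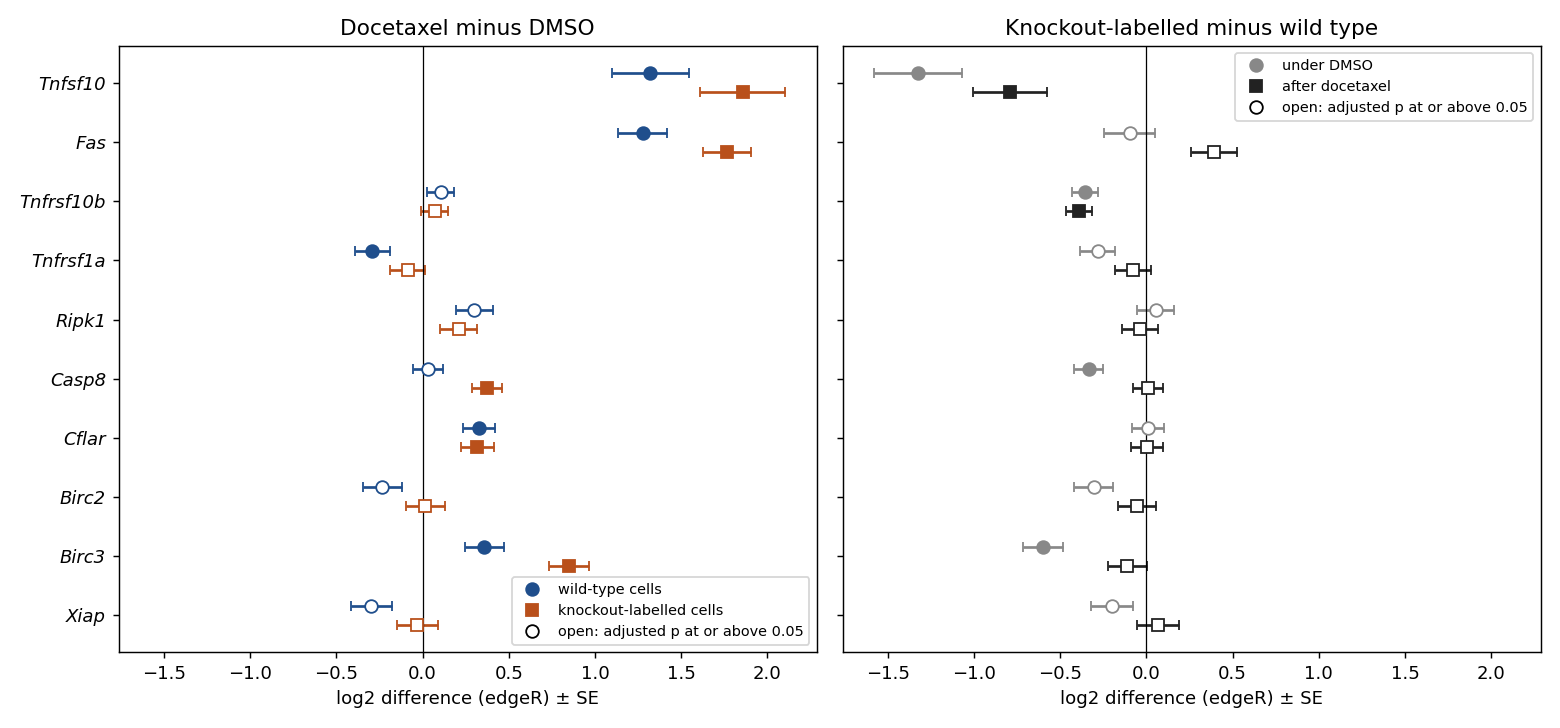
Log2 differences from edgeR (horizontal axes) ± SE for the 10 genes: docetaxel minus DMSO on the left for both cell stocks, and knockout-labelled minus wild type on the right for both treatments. Filled points passed at an adjusted p under 0.05 and open points did not. Fas and Tnfsf10 lie farthest right in the docetaxel panel, and in the genotype panel the filled points are all below 0.

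The genotype comparisons set the 2 cell stocks side by side without and with drug. Under DMSO, 4 of the 10 genes were lower in knockout-labelled cells (Tnfsf10, Tnfrsf10b, Casp8 and Birc3), beside 9.2% of all tested genes. None was higher, by edgeR, DESeq2 or limma-voom or at an unadjusted p under 0.05, where 6.6% of all genes were. After docetaxel, 2 were lower (Tnfrsf10b and Tnfsf10), beside 3.39% of all tested genes, and the count was 1 when any one docetaxel library was left out. None was higher after docetaxel by limma-voom or by edgeR fitted to all 12 libraries, beside 2.5% of all genes. Fas was higher by DESeq2, by edgeR with the docetaxel libraries fitted alone, and at an unadjusted p under 0.05. The libraries did not overlap for 5 members under DMSO (32.6% of all genes) and for 3 after docetaxel (25.1%). The median log2 difference of the 10 genes was -0.29 under DMSO and -0.05 after docetaxel, beside 0.01 and 0.01 over all tested genes. The genotype comparison under DMSO and the 2 docetaxel comparisons share their DMSO libraries, so their values are not independent of each other.

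Whether docetaxel acted differently in the 2 cell stocks was tested as the interaction of genotype and drug. None of the 10 genes passed by edgeR, DESeq2 or limma-voom, beside 0.109% of all tested genes by edgeR (0.0901% with a positive and 0.0193% with a negative interaction). At an unadjusted p under 0.05 there were 3, Fas, Casp8 and Birc3, each with the larger docetaxel difference in knockout-labelled cells. The share of all tested genes at that unadjusted threshold was not counted, so the 3 are not read as an excess. The interaction for Tnfsf10 was 0.54 ± 0.33 (edgeR adjusted p = 0.555). The remaining 6 lay between -0.09 and 0.27 on the log2 scale.

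Scaled by exonic length, the receptors and the caspase stood well above the ligand. In WT-DMSO, Tnfrsf1a was at 28.4 ± 4.12 CPM per kilobase (SD, n = 3), Casp8 at 22.7 ± 1.55, Tnfrsf10b at 17.2 ± 1.23 and Xiap at 13.5 ± 1.79. Cflar followed at 6.33 ± 0.798, then Birc3 at 5.11 ± 0.573, Birc2 at 4.89 ± 0.433, Fas at 2.66 ± 0.569 and Ripk1 at 2.46 ± 0.379. Tnfsf10 was last at 0.480 ± 0.120, and it was last in each of the 4 groups. Birc3 and Birc2, and Fas and Ripk1, did not differ beyond their spread in WT-DMSO. In WT-DTX, Tnfrsf1a at 23.2 ± 1.55 and Casp8 at 23.2 ± 0.581 CPM per kilobase could not be ordered. Fas, at 2.49 ± 0.171 CPM per kilobase in KO-DMSO, could not be told from Ripk1 there either (2.56 ± 0.0243). In WT-DTX it was at 6.46 ± 0.413, beside Birc3 at 6.55 ± 0.792, and in KO-DTX at 8.47 ± 0.257, beside Cflar at 7.94 ± 0.625, again without an order beyond the spread. These values use the summed exon length of each gene in GENCODE M21, and the isoforms present in these cells may be shorter.

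**Figure D3:**
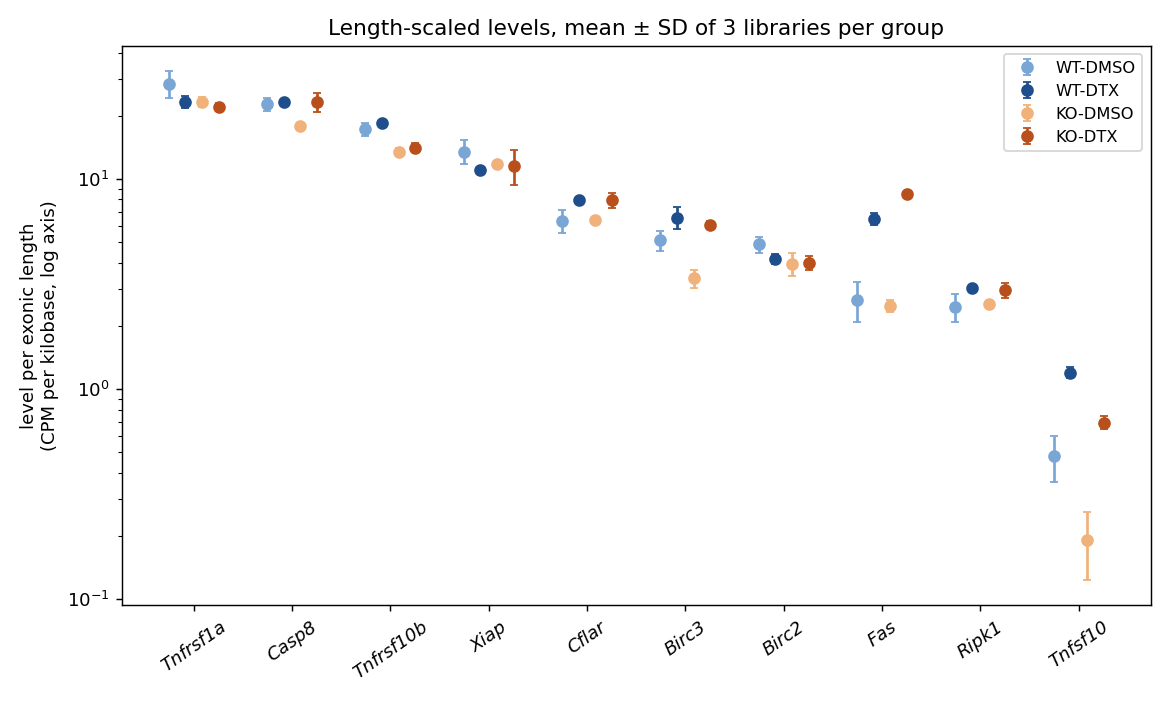
Length-scaled levels of the 10 genes (CPM per kilobase of exon, logarithmic vertical axis) as mean ± SD of 3 libraries in each of the 4 groups, ordered by the WT-DMSO level. Tnfsf10 is last in every group, from 0.192 in KO-DMSO to 1.20 in WT-DTX, and Fas shows the widest gap between DMSO and docetaxel among the receptor genes.

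Over the 12 libraries the log2 levels of the members were correlated with each other to differing degrees. Pearson's r over the 45 pairs ran from -0.773, for Tnfrsf1a with Ripk1, to 0.923, for Cflar with Ripk1, with a median of 0.369. Tnfsf10 and Birc3 had an r of 0.905. The genes most like Tnfsf10 were Mx1 (r = 0.973), Trim34a (0.969) and Ifi207 (0.964), out of 10184 genes with a mean of at least 5 CPM. Those most like Birc3 were Gbp2b (0.988), Parp9 (0.987) and Gbp2 (0.986), and those most like Fas were Cxcl5 (0.984), Btbd10 (0.983) and Bid (0.983). These values describe 12 libraries in 4 groups, so each reflects mainly how the group means are ordered.

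The wider extrinsic apoptosis list held 68 genes found in the table, of which 64 were tested, 54 of them outside the 10. The gene for Fas ligand, Fasl, had 0 counts in all 12 libraries, and Tnfsf12, Tnfsf14 and Tnfrsf11b were too low to test. Of these 54, Tnf, Ltb, Tnfsf15 and Tnfrsf25 met the filter on low counts through docetaxel libraries alone, so a rise of theirs is no support for a count. Among the other 50, counted after the values were seen, docetaxel raised 15 (30.0%) and lowered 6 (12.0%) in wild-type cells, beside 14.5% and 13.8% of all tested genes. In knockout-labelled cells it raised 15 (30.0%) and lowered 1 (2.0%), beside 9.09% and 7%. Their medians were 0.15 and 0.14 on the log2 scale, beside 0.02 and 0.00 over all tested genes. With the 4 included, 18 rose in each cell stock, and the counts that fell were the same. With the 10 members included as well, the count of calls in wild-type cells was 29 of 64, beside 28.4% of all tested genes in either direction. The count ran from 18 to 27 when single libraries were left out (lowest without WT-DTX replicate 3). In knockout-labelled cells it was 24 of 64, beside 16.1%, and ran from 16 to 25 (lowest without KO-DMSO replicate 2 or KO-DTX replicate 1). Both totals hold the 4 genes that met the filter through docetaxel libraries alone and the 10 members. Neither total is therefore read as an excess over those shares.

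The counts by role below are small and stand beside the same shares of all tested genes. Of the 8 ligand genes, 5 were tested, and besides Tnfsf10 only Lta did not meet the filter through docetaxel libraries alone, so no count of ligands is read. Tnf is named after its values were seen and met the filter through docetaxel libraries alone. Its ratios describe the counts and are no test of a rise. Tnf summed to 8 counts in WT-DMSO and 121 in WT-DTX, a ratio per depth of 12.5 (95% exact interval 6.12 to 29.5, counting error only). It summed to 6 counts in KO-DMSO and 208 in KO-DTX, a ratio of 30.2 (13.6 to 83.1). Among 12 receptor genes, 5 rose and 1 (Tnfrsf1a) fell in wild-type cells, beside 14.5% and 13.8% of all tested genes. In knockout-labelled cells 5 rose and 0 fell, beside 9.09% and 7%. The 12 include Tnfrsf25, which met the filter through docetaxel libraries alone. Tnfrsf26, a relative of the TRAIL decoy receptor genes, rose by 1.16 ± 0.25 on the log2 scale in wild-type cells and by 1.27 ± 0.25 in knockout-labelled cells (edgeR adjusted p = 0.00431 and 0.00343). Tnfrsf21, which encodes death receptor 6, rose by 1.02 ± 0.13 and 0.58 ± 0.12 (edgeR adjusted p = 9.44e-05 and 0.00574). Tnfrsf23, which encodes a decoy receptor for TRAIL, rose by 0.62 ± 0.16 in wild-type cells (edgeR adjusted p = 0.0115) and by 0.60 ± 0.16 in knockout-labelled cells (edgeR adjusted p = 0.0210). The second call was lost without KO-DMSO replicate 1 or 2 or KO-DTX replicate 1 or 3 (0.0604 to 0.0972). The wild-type call of Tnfrsf23 was not followed under the alternatives.

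The substrates and regulators downstream of caspase 8 varied. Bid, which caspase 8 cleaves to engage the mitochondrial route, rose in both cell stocks. It measured 29.3, 34.6 and 34.5 CPM in WT-DMSO and 55.6, 60.5 and 59.4 CPM in WT-DTX, and 38.5, 33.2 and 36.0 CPM in KO-DMSO and 65.8, 69.4 and 68.4 CPM in KO-DTX. The groups did not overlap between treatments, and the log2 differences were 0.83 ± 0.09 and 0.92 ± 0.09 (edgeR adjusted p = 3e-05 and 1.02e-05). Of the 7 genes for caspases and Bid, 1 rose and 2 fell in wild-type cells, and 3 rose in knockout-labelled cells. Among all tested genes, 14.5% rose and 13.8% fell in wild-type cells, and 9.09% rose and 7% fell in knockout-labelled cells. Among the 4 IAP antagonist genes, 2 rose in wild-type cells and 3 in knockout-labelled cells, beside the same 14.5% and 9.09%. Xaf1, whose product binds XIAP, measured 42.6, 54.1 and 47.0 CPM in WT-DMSO, 71.8, 89.4 and 79.7 CPM in WT-DTX, 14.6, 26.2 and 22.7 CPM in KO-DMSO, and 61.9, 76.7 and 72.2 CPM in KO-DTX. KO-DMSO was lowest without overlap, and WT-DMSO lay between it and both docetaxel groups, as for Birc3. Xaf1 rose by 0.74 ± 0.17 in wild-type cells (edgeR adjusted p = 0.00505) and by 1.73 ± 0.17 in knockout-labelled cells (edgeR adjusted p = 1.5e-05).

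Of 14 adaptor and kinase genes, 3 rose and 3 fell in wild-type cells, and 2 rose and 1 fell in knockout-labelled cells, beside 14.5% and 13.8%, and 9.09% and 7%, of all tested genes. Casp8ap2, which encodes a caspase 8 associated protein, rose by 0.69 ± 0.15 on the log2 scale in wild-type cells (edgeR adjusted p = 0.00351) and by 0.49 ± 0.14 in knockout-labelled cells (edgeR adjusted p = 0.0327). Its call in knockout-labelled cells was not followed under the alternatives. Of 15 genes for ubiquitin editing and IκB kinase signalling, 5 rose and 1 fell in wild-type cells and 4 rose in knockout-labelled cells. The same shares of all tested genes stand beside them. Tnip1, which encodes a ubiquitin-binding partner of A20, rose by 0.67 ± 0.20 and 0.85 ± 0.20 (edgeR adjusted p = 0.0210 and 0.0100). Its wild-type call was lost without WT-DMSO replicate 1 or 2 or WT-DTX replicate 2 or 3 (edgeR adjusted p from 0.0535 to 0.0896) and without the 2 Gm23935-rich libraries (0.0996). Of the 7 inhibitor and IAP genes, 2 rose in each cell stock, beside 14.5% and 9.09% of all tested genes. Both were members, Cflar and Birc3.

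**Figure D4:**
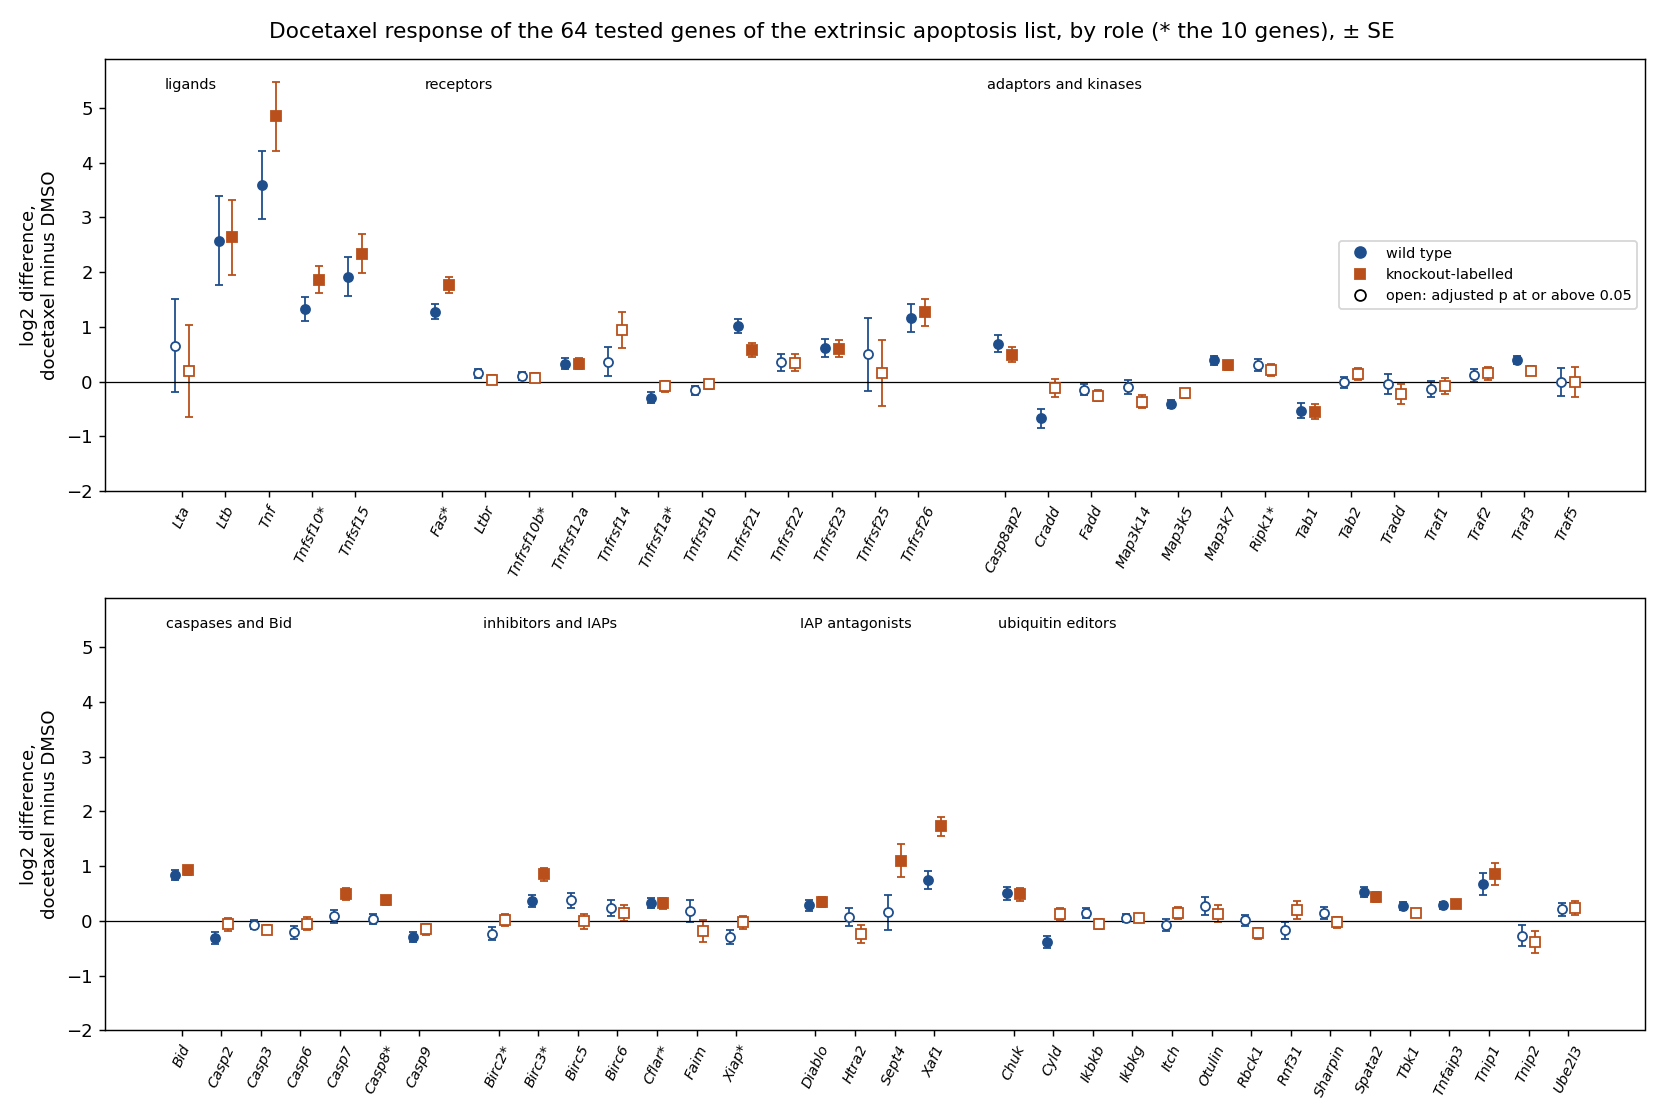
Docetaxel minus DMSO on the log2 scale ± SE (vertical axes) for the 64 tested genes of the wider list, grouped by role, in wild-type (circles) and knockout-labelled cells (squares). An asterisk marks the 10 genes, and filled points passed at an edgeR adjusted p under 0.05. Fas and Tnfsf10 lie above 1 in both cell stocks. The high points of Tnf, Ltb and Tnfsf15 belong to genes that met the filter on low counts through docetaxel libraries alone.

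Between the genotypes under DMSO, 1 of the 54 other genes (1.9%) was higher in knockout-labelled cells and 7 (13.0%) were lower, beside 6.6% and 9.2% of all tested genes. Their median was 0.02, beside 0.01 over all tested genes. Tnfrsf21 was the higher one (log2 0.76 ± 0.13, edgeR adjusted p = 0.00104). Xaf1 was lower, at -1.18 ± 0.17 on the log2 scale (edgeR adjusted p = 0.000437). Rnf31, which encodes the catalytic subunit of the linear ubiquitin ligase, was at -0.72 ± 0.16 (edgeR adjusted p = 0.00823), and Cyld, which encodes a deubiquitinase of the same chains, at -0.70 ± 0.11 (edgeR adjusted p = 0.000696). Traf1, an adaptor that binds the cIAP proteins, was at -0.67 ± 0.14 (edgeR adjusted p = 0.00603), and the executioner caspase gene Casp6 at -0.45 ± 0.12 (edgeR adjusted p = 0.0204). The Casp6 call was lost without WT-DMSO replicate 2, KO-DMSO replicate 1 or KO-DMSO replicate 3 (edgeR adjusted p from 0.0536 to 0.104), with the DMSO libraries fitted alone (0.0516) and without the 2 Gm23935-rich libraries (0.107). After docetaxel, 1 of the 54 (1.9%) was higher and 2 (3.7%) were lower, close to the 2.5% and 3.39% of all tested genes. Cradd, which encodes an adaptor of caspase 2, was higher by 0.74 ± 0.17 (edgeR adjusted p = 0.0169), and Traf1 was lower (log2 -0.62 ± 0.14, edgeR adjusted p = 0.0185). Traf1 passed in neither docetaxel comparison. Cradd fell in wild-type cells by 0.67 ± 0.17 (edgeR adjusted p = 0.00969), a call that was not followed under the alternatives. The Traf1 call after docetaxel was lost without WT-DTX replicate 2 or 3 or KO-DTX replicate 1 or 3 (edgeR adjusted p from 0.0678 to 0.0814) and without the 2 Gm23935-rich libraries (0.0648), and the Cradd call without WT-DTX replicate 1 or 3 or KO-DTX replicate 3 (0.0609 to 0.0925). In the interaction, 0 of the 64 genes passed by edgeR or limma-voom, while 9 had an unadjusted p under 0.05 by edgeR. DESeq2, run without the filter on low counts, called 1 of 67 genes of the wider list. The share of all tested genes at that unadjusted threshold was not counted, so the 9 are not read as an excess.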

How the data were processed

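RNA-seq of 12 libraries gave raw gene counts, deposited by the authors as 1 table; per the submitters' processing notes, the tools named were STAR 2.5.1a, featureCounts 1.4.6-p5 (Subread) and bcl2fastq. The sources used here do not give the genome build or the strand setting. Per the labels' protocols, ribosomal RNA was removed enzymatically, cDNA was made with random hexamers and amplified for 12 cycles, and paired reads of 150 bases were sequenced. Of 40757 entries, 351 repeats (0.907% of counts) were removed. Libraries within a group differed beyond counting noise (chi-square per degree of freedom from 7.79 to 155). Library preparation can add such spread, so it does not show that they came from separate cultures. Each counted as 1 replicate because the labels call them biological triplicates.

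edgeR 4.0.16 (R 4.3.3) fitted 1 quasi-likelihood model with 4 group means to all 12 libraries after filterByExpr and TMM scaling, with two-sided tests adjusted by Benjamini-Hochberg over 15538 genes. On counts simulated for docetaxel in wild-type cells (15184 genes), it recovered 75.8% of 62 log2 changes of 1 and 35.6% of 59 of 0.5. There, 5% of its calls were false. For the interaction (15187 genes) it recovered 63.9% and 11.5%, of 61 changes each. Far fewer genes were changed there than were called in the data (28.4% for docetaxel in wild-type cells), and each gene's spread came from the trend over levels. These shares therefore do not give the recovery in these data. DESeq2 1.42.0, limma-voom (limma 3.58.1), other scalings and filters, fits of the compared groups alone, a replicate block and left-out libraries were alternatives. Whether replicate numbers pair the libraries was not settled. Same-numbered deviations correlated from -0.272 to 0.346, over 0.1 in 4 of 18 pairs. Differently numbered ones correlated from -0.358 to 0.302, over 0.1 in 4 of 36. The main model held no replicate block. Gene positions and exon lengths are from GENCODE M21 (GRCm38), and promoter sequences from RefSeq (GRCm38.p6), which matched 9 of the 10 members. From the wider list the text names, per comparison, the called genes with the 6 largest differences and at least 5 CPM in the higher group; likeness uses the 3 members with the largest difference. The members and lists were chosen with earlier results of these data known. Intervals on summed counts are exact at 95% and cover counting error only.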

Additional observations from a re-analysis of the deposited data

How the results depend on the processing

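Of 800 member values under alternatives, 715 kept their direction and side of the threshold, 38 lost a call, 11 gained one and 36 changed sign without a call on either side. With 1 library left out, members called ran from 2 to 5 (docetaxel, wild type), were 1 (genotypes after docetaxel) and ran from 0 to 1 (interaction), while wider-list calls ran from 18 to 27, from 2 to 4 and from 0 to 3. With the compared groups fitted alone, 2 members were called for docetaxel in wild-type cells. Without WT-DMSO replicate 2 and KO-DTX replicate 3, the richest in Gm23935 of their groups, an alternative chosen after seeing the data, 3 members were called there, and 1 member and 3 wider-list genes for the genotypes after docetaxel. DESeq2 called 8 of 67 genes of the wider list in that comparison and 1 in the interaction, where no filter on low counts also gave 1. The comparisons stand in the order docetaxel in wild-type, then knockout-labelled cells, genotypes under DMSO, then after docetaxel, and interaction. The replicate block, on numbers not shown to pair the libraries, gave 6, 5, 5, 2 and 0 members called in that order. It gave 30, 24, 14, 5 and 1 of the wider list. It added Ripk1 in the first comparison (edgeR adjusted p = 0.0305) and Tnfrsf1a in the third (0.0454); 19 of 36 library-and-group pairs correlated best with their own number.

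Sign changes were all near 0. For docetaxel in knockout-labelled cells Birc2 was -0.022 with upper-quartile scaling and Xiap 0.0081 without the Gm23935-rich libraries. That setting also gave Cflar -0.0019 under DMSO and 0.0043 in the interaction, and Ripk1 0.020 after docetaxel and 0.012 in the interaction. After docetaxel Casp8 was -6.5e-05 with upper-quartile scaling, and Cflar was -0.0090 with it, -0.00063 with limma-voom and -0.0019 with the replicate block. The Cflar interaction was 0.0032 with DESeq2 and 0.0031 with RLE scaling. With 1 library left out, the docetaxel difference ran from -0.0079 to 0.087 for Casp8 in wild-type cells, and in knockout-labelled cells from -0.086 to 0.094 for Birc2 and from -0.19 to 0.085 for Xiap. Under DMSO the genotype difference ran from -0.26 to 0.025 for Fas, from -0.079 to 0.11 for Cflar, from -0.031 to 0.19 for Ripk1 and from -0.091 to 0.036 for Itgb3. After docetaxel it ran from -0.070 to 0.085 for Casp8, from -0.053 to 0.065 for Cflar, from -0.10 to 0.015 for Ripk1 and from -0.088 to 0.18 for Xiap. The interaction ran from -0.077 to 0.024 for Tnfrsf10b and from -0.11 to 0.078 for Cflar. The cause was not tested. Counts were low for Tnfsf10 (0.646 to 6.58 CPM), which limits its precision. No result met a flag for a closer look.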
